A study of Homo sapiens with 6 samples.

Results

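The genes described here are 8 transcription factors. SNAI1, SNAI2, ZEB1, ZEB2, TWIST1, TWIST2 and PRRX1 drive the epithelial to mesenchymal transition (EMT), and MECOM belongs to the PRDM family of zinc finger factors. They were picked by symbol, with earlier results of these data known, from the 26748 genes of the deposited table, and all 8 had a row. RNA came from M14, an established human melanoma line, grown without adhesion as floating 3D melanospheres (3D, 3 libraries) or attached to the dish in 2D (2D, 3 libraries). Both cultures were the same line, and the labels name no gene edit, drug or time in culture for either. The study asked which cell populations distinguish the non-adherent from the adherent culture, with putative cancer stem cells in view. Whether the 3 libraries of a culture came from separate cultures is not stated, so a p-value here reflects only how far the libraries scatter, and that scatter may be technical. In bulk RNA, fewer cells expressing a gene and less of its RNA per cell cannot be told apart.

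In EMT, epithelial cells lose cell to cell adhesion and gain motility and matrix production. SNAI1 and SNAI2 (Snail and Slug) and ZEB1 and ZEB2 are zinc finger repressors that bind E-box sequences and silence epithelial genes such as CDH1, which encodes E-cadherin. TWIST1 and TWIST2 are basic helix-loop-helix factors, and PRRX1 is a homeobox factor of mesenchyme. In the melanocyte lineage, SNAI2 and ZEB2 are known from differentiated cells, and ZEB1 and TWIST1 from dedifferentiated melanoma. MECOM encodes EVI1 and its longer form MDS1-EVI1 and is best known from blood stem cells and leukaemia.

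Between 16567763 and 19954987 reads per library were assigned to genes. 2D replicate 3 stood apart from the other 2D libraries. Across genes, log2 values correlated at 0.943 and 0.945 between it and 2D replicates 1 and 2, which correlated at 0.984 with each other, and its score on the first principal component was -24.7, where 2D replicates 1 and 2 scored -94.7 and -84.4 and spheres scored 59.3 to 73.9. Genes of the mitochondrial genome took 4.28% to 5.76% of the reads in 3D and 0.528% to 1.49% in 2D. Of 16 melanocytic lineage genes, 15 had a row and 6 reached the mean of 10 normalised counts that a gene needed to be tested. MITF, the master regulator of the lineage, had 288 ± 19.0 normalised counts in 3D and 1131 ± 215 in 2D (SD, n = 3 each; limma, adjusted p = 0.00077). Over the 6 tested genes, 0 were called higher and 2 lower (limma; at an unadjusted p under 0.05, 1 was higher and 3 lower; edgeR called 0 and 2, DESeq2 1 and 3). SOX10, MLANA, TYR and PAX3, which help define the lineage, had means of at most 16.1 in either culture. The median log2 change of these 6 genes was 0.05, against -0.02 over all genes, and 33.3% of them were called, against 24.1% of all genes. The summed level of the list was 1713 to 2217 in 3D and 2442 to 2694 in 2D, with 5 to 9 of the 15 genes at 0 reads in a 3D library and 1 to 4 in a 2D library. MITF is part of these sums, so they do not show how the other genes of the list moved. Markers of other cell types, 13 of 18 with a row, summed to 4885 to 6076 in 3D and 2212 to 5589 in 2D, mostly through COL1A1. Of 7 tested, 1 rose and 2 fell (42.9% called, against 24.1% of all genes). The one that rose was PECAM1, an endothelial adhesion gene, at 117 ± 32.6 in 3D and 3.08 ± 5.34 in 2D (SD, n = 3 each; limma, adjusted p = 0.0040), and those that fell were CDH1 and EPCAM, described below. The other tested endothelial markers did not pass: CDH5 had 20.8 ± 1.18 in 3D and 103 ± 144 in 2D, with 268 in 2D replicate 3, and VWF 17.7 ± 7.43 in 3D and 31.0 ± 8.41 in 2D (SD, n = 3 each; limma, adjusted p = 0.40 and 0.20). The leukocyte gene PTPRC stayed at or below 4.27 and the endothelial receptor KDR was at 0 in all libraries but 2D replicate 2. KRT8 and KRT18, keratins of simple epithelia, averaged 24926.5 ± 3485 and 10689 ± 2148 in 3D and 24771 ± 17046 and 11234 ± 3264 in 2D (SD, n = 3 each). The identity of the line, named melanoma by the labels, was not tested, nor was the part of these markers in the values given here.

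The 8 factors did not move together. MECOM, ZEB2 and TWIST1 were well below their 2D level in the spheres, PRRX1 had no reads there, SNAI2 was modestly lower and ZEB1 about level. SNAI1 and TWIST2 were higher in 3D than in 2D replicates 1 and 2, whereas 2D replicate 3 stood close to the spheres for both. Of the 7 members tested, 3 passed the threshold (limma, Benjamini-Hochberg adjusted p under 0.05 over 15598 genes), all of them lower in 3D. Over all genes the same rule called 24.1% in either direction, 12.5% higher and 11.6% lower. The cultures did not overlap for 5 of the 7 (SNAI1, SNAI2, ZEB2, TWIST1 and MECOM), which held for 43.1% of all tested genes. With the recovered reads, edgeR called 3 members and 23.4% of all genes, and DESeq2 4 members and 30.3%. Leaving out 3D replicate 1, 2 or 3 left 2, 3 or 2 members called, where 8.38%, 19.1% or 7.63% of all genes were. Leaving out 2D replicate 1, 2 or 3 left 2, 2 or 5, where 9.93%, 11.5% or 45.6% of all genes were. The members were chosen with this contrast known, so their count and changes are descriptions, and no p-value is given for a member. In counts, 1950 genes were higher and 1816 lower. With libraries rescaled to equal totals they were 2417 and 1253, since this moved the median log2 change of all genes to 0.11, against -0.02 as deposited. The median of all genes is the baseline for the changes below, which are log2 differences of normalised counts plus 1, 3D minus 2D, with the standard error (SE) of the fit.

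**Figure D1:**
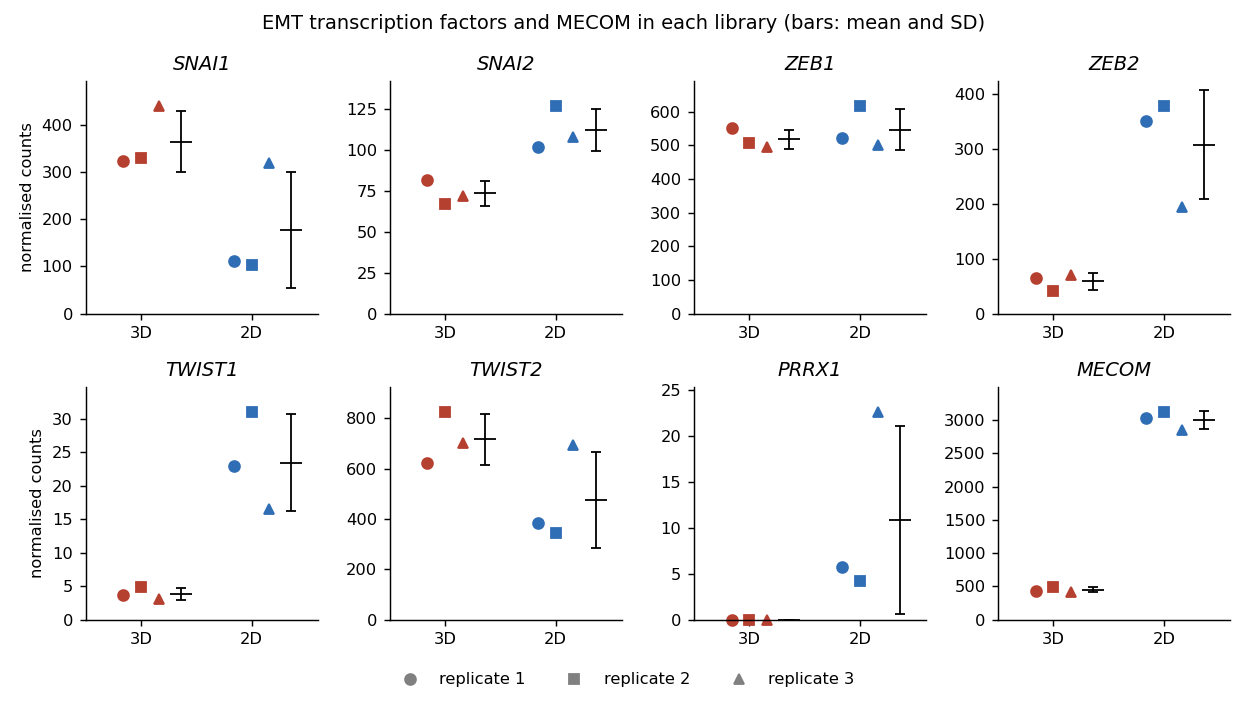
Normalised counts (vertical axis, from 0) of each factor in each library, 3D left of 2D, with the replicate shown by the marker shape and the mean and SD of 3 libraries as a bar. MECOM lies between 423 and 491 in 3D and between 2849.8 and 3117 in 2D, and 2D replicate 3 stands near the 3D libraries for SNAI1 and TWIST2.

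SNAI1 (ENSG00000124216, chromosome 20, 49982999 to 49988886, plus strand, GRCh38) encodes Snail. It had 323, 331 and 440 normalised counts in 3D replicates 1 to 3, against 111, 102 and 319 in 2D replicates 1 to 3. The cultures did not overlap, but 2D replicate 3 lay just under the lowest sphere library. The mean was 364 ± 65.4 in 3D and 177 ± 123 in 2D (SD, n = 3 each), a change of 1.23 (SE 0.42) that did not pass. Relative to 2D replicates 1 and 2 the sphere mean was 3.42 times as high, and relative to 2D replicate 3 it was 1.14 times as high. With 2D replicate 3 left out the change was 1.75 and passed.

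SNAI2 (ENSG00000019549, chromosome 8, 48917604 to 48921740, minus strand) encodes Slug, which is needed in the neural crest and in melanocytes. Its values were 81.6, 66.9 and 72.3 in 3D and 102, 127 and 108 in 2D. Every 3D library was below every 2D library, 2D replicate 3 included. The change was -0.60 (SE 0.26) and did not pass in the fit of all 6 libraries or in any fit with a library left out (-0.68 to -0.51).

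SNAI3 (ENSG00000185669), the least studied Snail gene and not one of the 8, rose in the spheres. It had 70.5, 59.1 and 93.9 normalised counts in 3D and 8.58, 11.7 and 25.7 in 2D (change 2.32, SE 0.46; limma, adjusted p = 0.010), a call lost when 3D replicate 3 was dropped (dropping single libraries gave adjusted p from 0.00063 to 0.060). Its antisense neighbour SNAI3-AS1 overlaps 9.41% of its exon bases and rose too, to 288 ± 39.3 in 3D, against 52.1 ± 24.0 in 2D (SD, n = 3 each; limma, adjusted p = 0.0025). The library kit keeps no strand, so reads from the overlap cannot be assigned to either gene.

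ZEB1 (ENSG00000148516, chromosome 10, 31318495 to 31529814, plus strand) was about level, at 550.2, 507 and 497 in 3D and 521, 617 and 502 in 2D. The cultures overlapped. The change was -0.07 (SE 0.18), with a 95% interval of -0.47 to 0.33, and its sign turned with libraries rescaled to equal totals (0.06) and without 2D replicate 2 (0.02). ZEB1-AS1, whose exons overlap 4.23% of those of ZEB1 on the other strand, had 65.1 ± 17.9 in 3D and 130 ± 82.1 in 2D (SD, n = 3 each; limma, adjusted p = 0.40), with 2D replicate 3 lowest of all 6 libraries; without it, ZEB1-AS1 was called lower (adjusted p = 0.0052).

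ZEB2 (ENSG00000169554, chromosome 2, 144364364 to 144524583, minus strand) differed from its paralog. It had 64.9, 41.7 and 70.2 normalised counts in 3D, against 351, 379 and 194 in 2D. No 3D library reached the lowest 2D library, which was 2D replicate 3. The mean was 58.9 ± 15.2 in 3D and 308 ± 99.5 in 2D (SD, n = 3 each), 5.23 times as high in 2D (change -2.34, SE 0.34). The change lay between -2.64 and -2.11 with each library left out in turn and passed in all 6 of those fits. Levels of different genes were compared per kilobase of annotated exon. Per kilobase, ZEB1 made up 95.3% to 97.2% of the sum of both ZEB genes in 3D and 81.2% to 88.2% in 2D.

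TWIST1 (ENSG00000122691, chromosome 7, 19020991 to 19117672, minus strand) was sparse. Its reads numbered 12 over the 3D libraries and 69 over the 2D libraries, or 3.71, 4.85 and 3.10 normalised counts in 3D and 22.9, 31.0 and 16.4 in 2D. The cultures did not overlap. The rate per library was 5.98 times as high in 2D (exact 95% binomial interval 3.21 to 12.1, counting error only), and this ratio was 5.07 to 6.85 with a library left out. The fitted change of -2.29 (SE 0.48) passed in the fit of all 6 libraries and without 3D replicate 2 or 2D replicate 3, but not without any of the other 4. TWIST1 reached the filter only through its 2D level. Exons of another gene, AC003986.2, overlap 6.94% of its exon bases, and reads from there cannot be assigned to either gene.

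TWIST2 (ENSG00000233608, chromosome 2, 238848032 to 238910543, plus strand) was the more abundant Twist gene in every library. It had 622, 824 and 703 normalised counts in 3D and 386, 343 and 692 in 2D. The ranges overlapped, because 2D replicate 3 was above 3D replicate 1. The change was 0.66 (SE 0.28), which did not pass, and it was 0.97 and passed without 2D replicate 3. Per kilobase, TWIST2 made up 99.5% to 99.6% of both Twist genes in 3D and 92.3% to 97.9% in 2D.

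PRRX1 (ENSG00000116132, chromosome 1, 170662728 to 170739419, plus strand) was too low to test. It had no reads in the 3D libraries and 32 in the 2D libraries, of which 22 were in 2D replicate 3, or 5.72, 4.27 and 22.6 normalised counts. Set against 3 reads summed over the 3D libraries, the observed 2D level was 11.1 times as high, and 5.17 times as high without 2D replicate 3. These ratios leave out the counting error of the 2D reads. Its relative PRRX2, also a homeobox factor, did not pass, with 633 ± 51.8 in 3D and 560.4 ± 56.4 in 2D (SD, n = 3 each; limma, adjusted p = 0.48).

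MECOM (ENSG00000085276, chromosome 3, 169083499 to 169663618, minus strand) showed the largest change of the 7 members tested. Its log2 spread within cultures, pooled over both, was the smallest of the 7 (residual SD 0.094). In 3D alone ZEB1 scattered less, with an SD of 28.5 around 518, against 36.6 around 449.6 for MECOM. MECOM had 434, 491 and 423 normalised counts in 3D, against 3033, 3117 and 2849.8 in 2D. The cultures were far apart, and 2D replicate 3 was 0.927 times as high as the mean of 2D replicates 1 and 2. The mean was 449.6 ± 36.6 in 3D and 2999.8 ± 137 in 2D (SD, n = 3 each), 6.67 times as high in 2D. The change was -2.74 (SE 0.16), and -2.80 to -2.70 with a library left out. Of all tested genes, 3.23% changed by more in either direction. The counts are per gene, so the EVI1 and MDS1-EVI1 transcripts cannot be told apart.

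PRDM16 (ENSG00000142611), the closest relative of MECOM and known from brown fat and from blood stem cells, rose in the spheres. It had 238, 204 and 283 normalised counts in 3D and 12.4, 6.41 and 57.6 in 2D (change 3.74, SE 0.67; limma, adjusted p = 0.0071, or 4.1e-05 to 0.041 when single libraries were dropped). 2D replicate 3 was the highest 2D library, and without it the change was 4.59. Per kilobase, PRDM16 made up 27.9% to 38.4% of the sum of MECOM and PRDM16 in 3D and 0.191% to 1.85% in 2D. Another PRDM gene, PRDM1, which encodes the repressor BLIMP1, rose to 301 ± 102 in 3D, against 59.7 ± 19.6 in 2D (SD, n = 3 each; limma, adjusted p = 0.0031).

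**Figure D2:**
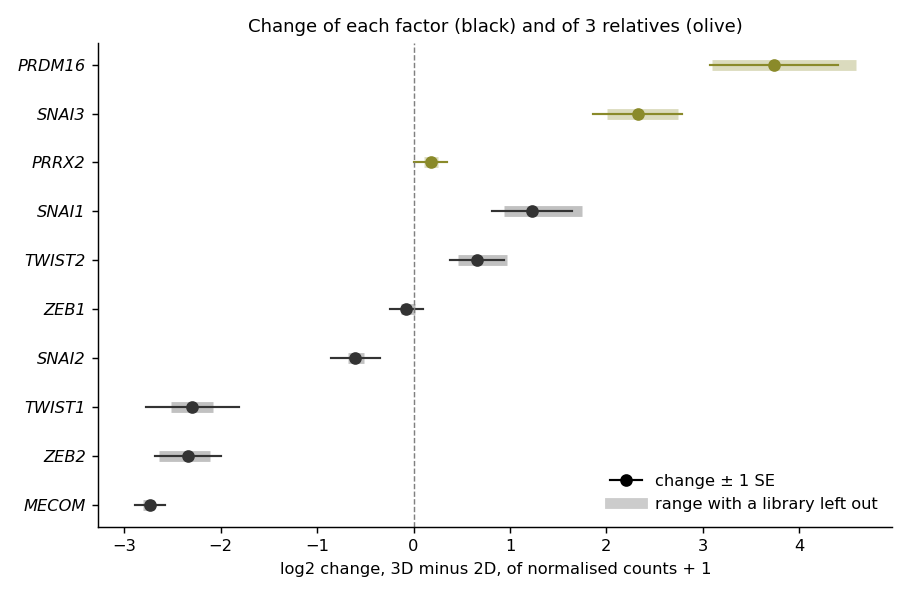
Log2 change of normalised counts plus 1, 3D minus 2D (horizontal axis), for the 7 tested factors in black and 3 relatives in olive, with 1 SE as a line and the range when single libraries were dropped as a broad band. MECOM, ZEB2 and TWIST1 lie at -2.74 to -2.29, ZEB1 at -0.07, and the relatives SNAI3 and PRDM16 at 2.32 and 3.74.

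The make-up of the 8 factors differed between the cultures. Per kilobase, MECOM made up 6.08% to 7.20% of the summed level of the 8 factors in 3D and 32.0% to 47.2% in 2D. TWIST2 made up 49.0% to 56.9% in 3D and 25.2% to 37.6% in 2D, and SNAI1 25.4% to 34.1% in 3D and 8.38% to 19.3% in 2D. Shares of a common sum depend on each other, so a lower MECOM raises the other shares even where their own levels stay. The changes of TWIST2 and SNAI1 themselves did not pass, as given above. The order of the mean levels per kilobase in 3D was TWIST2 (381 ± 54.2), SNAI1 (216 ± 38.8), ZEB1 (59.9 ± 3.29), MECOM (49.4 ± 4.03), SNAI2 (21.7 ± 2.20), ZEB2 (2.35 ± 0.606) and TWIST1 (1.91 ± 0.437), of which only the last pair did not differ beyond its spread (SD, n = 3). In 2D the order was MECOM (330 ± 15.0), TWIST2 (252 ± 101), SNAI1 (105 ± 72.7), ZEB1 (63.2 ± 7.13), SNAI2 (33.1 ± 3.86), ZEB2 (12.3 ± 3.97), TWIST1 (11.5 ± 3.58) and PRRX1 (1.32 ± 1.24). There the ranges of MECOM and TWIST2, of TWIST2 and SNAI1, of SNAI1 and ZEB1, and of ZEB2 and TWIST1 overlapped. Within each 2D library, TWIST2 still had a larger share than SNAI1 (28.5% against 9.10%, 25.2% against 8.38% and 37.6% against 19.3%). The order within the other overlapping pairs changed between 2D libraries. Exon length was the union of all annotated exons, which is long for ZEB2 and lowers its level per kilobase.

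**Figure D3:**
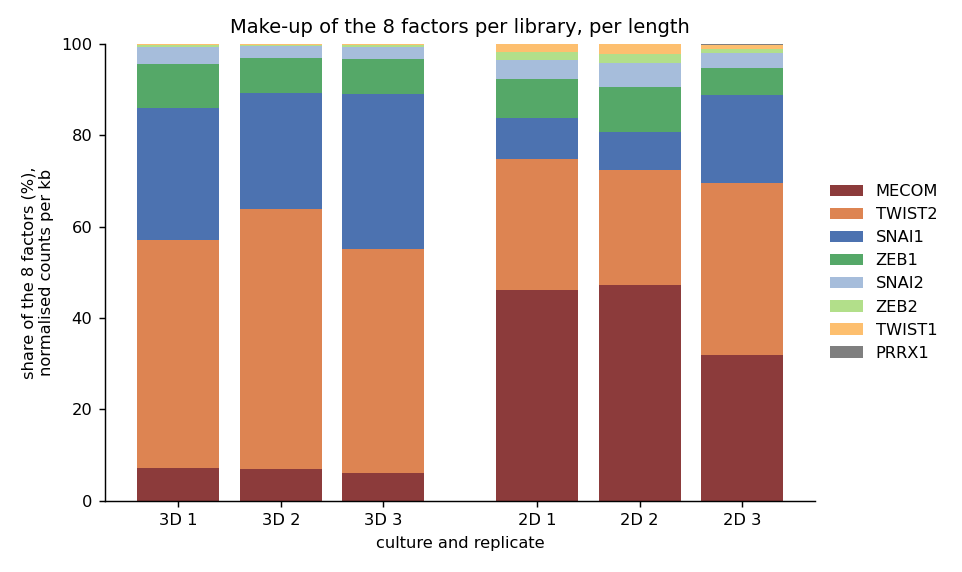
Share of each factor (vertical axis, percent) in the summed normalised counts per kilobase of the 8 factors, 1 bar per library, 3D libraries left of 2D libraries. MECOM takes 6.08% to 7.20% of the bar in the 3D libraries and 32.0% to 47.2% in the 2D libraries.

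The factors also differed in where 2D replicate 3 stood. It was 2.99 times as high as the mean of 2D replicates 1 and 2 for SNAI1 and 1.90 times for TWIST2, close to the ratios of the sphere mean to the same 2D libraries (3.42 and 1.97). It was 0.533 times as high for ZEB2 and 0.611 times for TWIST1, against 0.162 and 0.144 in the spheres. For MECOM and SNAI2 it was 0.927 and 0.943 times as high, against 0.146 and 0.643. What sets this library apart was not tested.

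**Figure D4:**
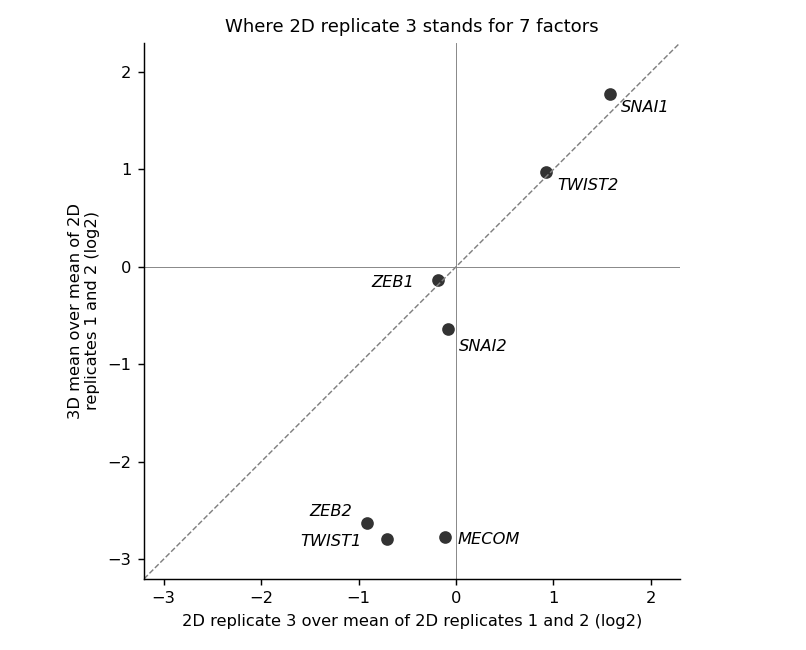
For 7 factors, the log2 ratio of 2D replicate 3 (horizontal axis) and of the 3D mean (vertical axis) to the mean of 2D replicates 1 and 2, with equality as a dashed line. SNAI1 and TWIST2 lie near the line, and MECOM, TWIST1 and ZEB2 far below it; PRRX1, with no reads in 3D, is not drawn.

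RefSeq promoter windows (GRCh38.p14) matched 5 of the 8 factors, with 13 windows in all. The 250 bases before a transcription start are printed for MECOM at its outer start (chr3:169663713-169663962, minus strand) and at an inner start, in the region where EVI1 transcripts begin (chr3:169146540-169146789, minus strand), since it had the largest change of the 7 tested factors. They are followed by those of ZEB2 (chr2:144520120-144520369, minus strand), which was lower in 3D, TWIST2 (chr2:238847835-238848084, plus strand), which was not, and ZEB1 (chr10:31318966-31319215, plus strand), whose cultures overlapped and which is shown by the one of its 7 windows with most matches. Capitals mark the E2-box CACCTG on either strand (CAGGTG when read in the gene's direction on the other), a sequence that Snail and Zeb proteins bind.
MECOM outer: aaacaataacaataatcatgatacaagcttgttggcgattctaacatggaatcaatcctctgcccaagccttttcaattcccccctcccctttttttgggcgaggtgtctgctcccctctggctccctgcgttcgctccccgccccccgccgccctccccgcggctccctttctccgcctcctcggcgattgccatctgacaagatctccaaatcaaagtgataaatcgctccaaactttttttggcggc
MECOM inner: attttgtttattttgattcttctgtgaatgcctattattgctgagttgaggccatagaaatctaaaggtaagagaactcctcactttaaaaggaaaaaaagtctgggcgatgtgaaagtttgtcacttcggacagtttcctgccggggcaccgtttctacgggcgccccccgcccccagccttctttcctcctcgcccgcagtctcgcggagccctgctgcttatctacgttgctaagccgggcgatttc
ZEB2: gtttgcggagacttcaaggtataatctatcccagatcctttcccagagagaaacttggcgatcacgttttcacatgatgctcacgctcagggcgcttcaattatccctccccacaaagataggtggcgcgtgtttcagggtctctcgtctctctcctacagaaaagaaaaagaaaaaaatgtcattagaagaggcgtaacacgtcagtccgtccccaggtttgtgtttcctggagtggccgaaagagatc
TWIST2: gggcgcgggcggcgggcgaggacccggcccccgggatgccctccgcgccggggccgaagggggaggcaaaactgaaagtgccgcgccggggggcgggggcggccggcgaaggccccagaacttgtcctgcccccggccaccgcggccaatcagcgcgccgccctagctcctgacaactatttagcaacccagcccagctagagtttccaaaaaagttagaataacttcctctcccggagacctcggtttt
ZEB1: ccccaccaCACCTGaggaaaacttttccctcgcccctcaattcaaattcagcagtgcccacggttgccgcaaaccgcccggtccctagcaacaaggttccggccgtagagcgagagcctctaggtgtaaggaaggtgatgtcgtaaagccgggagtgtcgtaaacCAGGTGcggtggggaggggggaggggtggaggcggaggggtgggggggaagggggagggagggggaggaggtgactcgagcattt

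The ZEB1 window held 2 E2-boxes, whose first bases lie 242 and 85 bases before the start, and the other printed windows held none. Of all 13 windows of the factors, 2 held an E2-box, both of them of ZEB1, against 17.5% of 35116 RefSeq windows of the same length. CATATG, an E-box bound by Twist proteins, and the AP-1 site, TGACTCA on either strand, occurred in 0 of the 13, against 2.63% and 4.20% of all windows. G and C made up 68.4% of the bases before TWIST2 and 48.0% to 62.4% of the other printed windows, where the median of all windows was 58.0%. A match describes letters only, and no binding was measured.

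ZEB1 and ZEB2 messages are classical targets of the miR-200 family, which pairs with their 3′ ends through its seed (bases 2 to 8, capitals below). The RefSeq mature sequences (GRCh38.p14) fall into 2 seed groups that differ at 1 base.
hsa-miR-200c-3p: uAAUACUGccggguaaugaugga
hsa-miR-200b-3p: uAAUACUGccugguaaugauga
hsa-miR-141-3p: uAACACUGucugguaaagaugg
hsa-miR-200a-3p: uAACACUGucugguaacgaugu

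In the coding transcripts of GENCODE 29 with the longest 3′ untranslated region, the complement of the first seed (CAGTATT) occurred 6 times in ZEB1 (2549 bases) and 5 times in ZEB2 (5370 bases), and that of the other seed (CAGTGTT) 3 and 4 times. Both genes thus carry matches to both seeds. Any part of these microRNAs in the levels of ZEB1 and ZEB2 was not tested. MicroRNAs were not measured here. MIR200CHG, the host transcript of miR-200c and miR-141, was near 0 in both cultures, with at most 1.03 normalised counts in 3D and none in 2D.

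Genes that EMT factors repress were called in both directions. Of 26 tested epithelial genes, 2 rose and 6 fell in 3D (30.8% called, against 24.1% of all genes). The median log2 change was -0.35, against -0.02 over all genes. CDH1, the classical target, fell to 2.78, 5.82 and 8.26 normalised counts in 3D, against 84.8, 76.9 and 115 in 2D (change -3.89, SE 0.45; limma, adjusted p = 0.0012). The adhesion molecule EPCAM fell to 172 ± 35.8 in 3D, against 423 ± 55.8 in 2D, and the polarity gene PATJ to 248 ± 26.5, against 559 ± 118 in 2D (SD, n = 3 each; limma, adjusted p = 0.0074 and 0.010). MYO5B, a motor of apical transport, and GRHL1, an epithelial transcription factor, also fell, by 0.96 and 1.48 on the log2 scale, though the call of GRHL1 was lost when 3D replicate 3 or either of 2D replicates 1 and 2 was dropped. CLDN4, a tight junction claudin, rose to 2310 ± 164 in 3D, against 390.5 ± 105 in 2D (SD, n = 3 each; change 2.59, SE 0.21; limma, adjusted p = 0.00040). TJP3, a junction scaffold, rose by 1.44 (SE 0.43), a call kept on dropping 3D replicate 2 or 2D replicate 3 and lost on dropping any other library. ESRP1, an epithelial splicing factor, was too low to test, with 0 reads in the 3D libraries and 1.03 to 8.58 normalised counts in 2D. KRT8 ranged over 21787 to 28676 in 3D and 13270 to 44355 in 2D.

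Of 22 tested mesenchymal genes, 9 rose and 2 fell in 3D, with a median log2 change of 0.85. The summed level of the list was 67302, 93429.9 and 67565 normalised counts in 3D, against 20538, 20093 and 47717 in 2D, so that 2D replicate 3 lay between the spheres and the other 2D libraries. Without it, 13 rose and 3 fell. MMP2, a gelatinase, had 2514, 7549.5 and 2842 normalised counts in 3D and 152, 162 and 242 in 2D (change 4.37, SE 0.40; limma, adjusted p = 0.00057). FN1, which encodes fibronectin, rose to 7952 ± 3589 in 3D, against 696 ± 305 in 2D (change 3.51, SE 0.37), COL3A1 to 5705 ± 1924, against 899.6 ± 736 in 2D, and COL5A1 to 10090.2 ± 1309, against 2807 ± 2102 in 2D (SD, n = 3 each). Adjusted p-values (limma) were 0.00083, 0.0065 and 0.011, and the calls of these 4 genes held with each library left out. AXL, a receptor kinase of dedifferentiated melanoma, fell to 1215 ± 386 in 3D, against 2696 ± 263 in 2D (SD, n = 3 each; limma, adjusted p = 0.0093), a call lost without 3D replicate 3. CCN2, which encodes connective tissue growth factor, fell by 3.66 (SE 1.00), with 2D replicate 3 at 3321 against 274 and 328 in the other 2D libraries, a call lost without 3D replicate 1 or 3D replicate 3. CDH2, the N-cadherin gene often gained as CDH1 is lost, had 339.5 ± 36.9 in 3D and 424 ± 26.3 in 2D, and the filament gene VIM 4310 ± 397 in 3D and 3327 ± 1081 in 2D (SD, n = 3 each); neither passed (limma, adjusted p = 0.23 and 0.21), VIM only once 2D replicate 3 was dropped.

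Among 24 other tested transcription factors tied to EMT, 2 rose, 9 fell and 13 did not pass. Of this list 45.8% was called, against 24.1% of all genes, and the median log2 change was -0.81. ID2 and ID1 encode helix-loop-helix proteins that lack a DNA-binding region and block partners of the Twist proteins. ID2 had 22.3, 18.4 and 18.6 normalised counts in 3D, against 232, 196 and 584 in 2D, and ID1 209, 675 and 235 in 3D, against 2093, 1741 and 3334 in 2D. Changes were -3.86 and -2.83 (limma, adjusted p = 0.00096 and 0.0041). FOXQ1, a forkhead factor that represses CDH1, fell to 51.3 ± 64.8 in 3D, against 1195 ± 380 in 2D (SD, n = 3 each; change -5.27, SE 0.78; limma, adjusted p = 0.0036), and FOXM1, a forkhead factor of the cell cycle, fell by 1.43. Of the 2 that rose, SNAI3 is described above, and ETV4 was called in the fit of all 6 libraries (adjusted p = 0.044) but in none of the 6 with a library left out.

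Of 32 tested corepressors and cofactors of the Snail, Zeb and MECOM proteins, 2 rose, 7 fell and 23 did not pass. The median log2 change was -0.17. The share called was 28.1%, against 24.1% of all genes. CTBP1 and CTBP2, which bind both Zeb proteins and MECOM, had 1695 ± 91.1 and 1087 ± 21.3 in 3D and 1785 ± 264 and 1438 ± 337 in 2D (SD, n = 3 each; limma, adjusted p = 0.80 and 0.20); CTBP2 was called lower without 2D replicate 3. AJUBA, a LIM protein that Snail recruits, fell to 540 ± 37.6 in 3D, against 3917 ± 1548 in 2D (SD, n = 3 each; change -2.76, SE 0.31; limma, adjusted p = 0.0010), and its relative WTIP fell by 1.37. SUZ12, of the Polycomb complex, and CREBBP, a histone acetyltransferase, fell by 0.79 and 1.43, calls lost without 3D replicate 3 and, for CREBBP, also without 3D replicate 1. The demethylase KDM1A and its partner RCOR2 had log2 changes of 0.89 and 1.07 and rose. The call of KDM1A was lost without any library but 2D replicate 3, and that of RCOR2 when 3D replicate 1 or 3, or 2D replicate 1, was dropped.

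Of 34 tested genes acting on the stability of EMT factor proteins, 11 fell and 0 rose (limma, adjusted p under 0.05). The counts were 14 and 0 at an unadjusted p under 0.05, 8 and 0 with edgeR and 13 and 0 with DESeq2. Limma called 32.4% of the list, against 24.1% of all genes, and the median log2 change was -0.35. The list joins genes that mark these proteins for degradation with deubiquitinases, so its calls give no direction of turnover. LATS2, a Hippo kinase that phosphorylates Snail, fell to 281 ± 26.4 in 3D, against 1378.5 ± 161 in 2D, and BTRC, an F-box protein that marks phosphorylated Snail for degradation, to 792 ± 14.5, against 1599.9 ± 112 in 2D (SD, n = 3 each; limma, adjusted p = 0.00037 and 0.0038). USP1, a deubiquitinase, fell by 1.06, and the ubiquitin ligase SIAH2 by 0.76, a call kept on dropping 2D replicate 3 and lost on dropping any other library. The number of calls rested on the scaling and the libraries: it was 4 with libraries rescaled to equal totals, 3 or 4 without a library other than 2D replicate 3, and 17 without 2D replicate 3, of which 1 was higher and 16 lower.

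Of 27 tested genes that act on EMT factor transcripts, 3 rose and 7 fell (37.0% called, against 24.1% of all genes). The median log2 change was -0.43. Ligands of the TGF-beta family, which induce SNAI1 and the Zeb genes in many cells, diverged. TGFB1 rose to 5071 ± 668 in 3D, against 1438 ± 893 in 2D, and TGFB3 to 276 ± 24.3, against 126 ± 12.8 in 2D, while TGFB2 fell to 57.8 ± 22.5 in 3D, against 604 ± 93.7 in 2D (SD, n = 3 each; limma, adjusted p = 0.0079, 0.0094 and 0.00070). The call of TGFB3 was lost without 3D replicate 3, and 24.8% of the 75-base windows of TGFB2 also occur in an overlapping transcript, so its value is uncertain. The signal transducers SMAD3 and SMAD4 fell by 1.91 and 0.61 on the log2 scale, that of SMAD4 only without 3D replicate 2 or 2D replicate 3 or in the fit of all 6 libraries, and NFKB1 fell by 0.68 under the same conditions. NOTCH3, a receptor whose pathway can induce Snail genes, rose to 7159.5 ± 293 in 3D, against 1025 ± 946 in 2D (SD, n = 3 each; change 3.20, SE 0.52; limma, adjusted p = 0.0050).

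Among 26 tested relatives, neighbours and known targets of MECOM, 2 rose and 5 fell (26.9% called, against 24.1% of all genes). The median log2 change of the list was -0.36. The 2 that rose are PRDM16 and PRDM1, given above. BCL2L1, which encodes the survival protein BCL-XL, fell to 712 ± 40.4 in 3D, against 2144 ± 399 in 2D (SD, n = 3 each; limma, adjusted p = 0.0013), and SMAD3, which EVI1 binds, is given above. MAPK8, a stress kinase that EVI1 inhibits, and CEBPA, a myeloid transcription factor that EVI1 represses, fell by 0.84 and 0.74, calls lost without 4 and 5 of the 6 libraries in turn. Within 1 Mb of MECOM, 11 genes were tested and 1, GPR160, fell by 0.99 on the log2 scale (limma, adjusted p = 0.030), a call lost on dropping any library but 3D replicate 2 or 2D replicate 3. The 5 tested neighbours among the genes fixed by name did not pass. SKIL, SEC62, MYNN, ACTRT3 and PRKCI had log2 changes of -1.35 to -0.17 (limma, adjusted p of 0.094 to 0.57). SKIL was called lower when 3D replicate 2 was dropped, and SEC62 and MYNN when 2D replicate 3 was, while LRRC34 and TERC were too low to test.

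**Figure D5:**
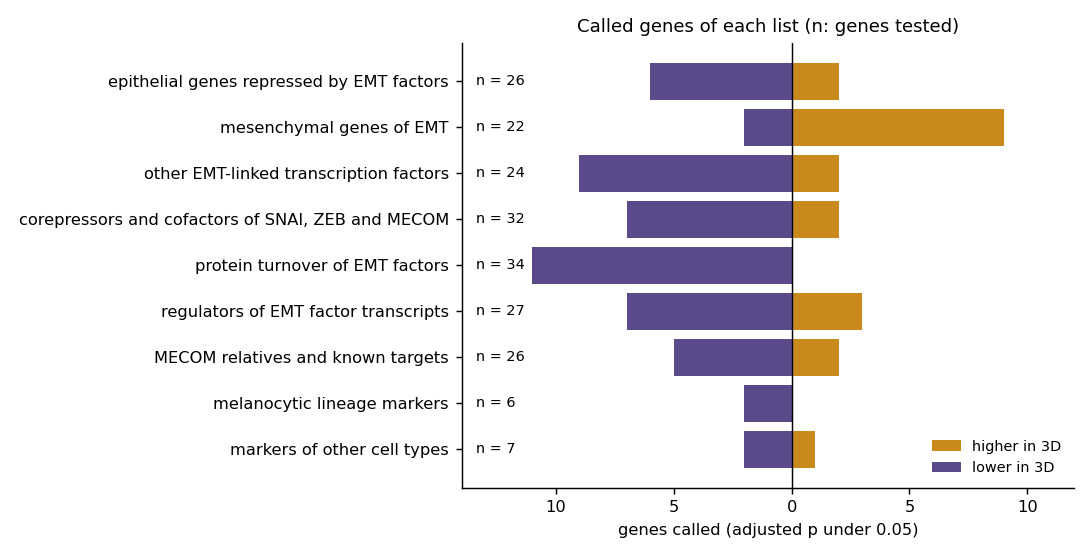
Number of genes called (limma, adjusted p under 0.05) higher in 3D to the right and lower in 3D to the left, for 9 gene lists, with the number tested beside each. The mesenchymal list has 9 higher and 2 lower, the list of protein turnover 0 higher and 11 lower.

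Leaving out a library moved the counts of each list. Without 2D replicate 3, 14 epithelial, 16 mesenchymal, 14 other EMT-linked factors, 14 corepressors and cofactors, 15 regulators and 14 genes around MECOM were called. When 3D replicate 1 or 3, or 2D replicate 1 or 2, was dropped, the epithelial list had 5 or 6 calls. The mesenchymal list then had 4 to 7, the other factors 5 or 6 and the corepressors and cofactors 2 to 5. The regulators had 4 or 5 and the genes around MECOM 4.

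For each tested factor, the pair of other protein-coding genes with the most similar profile over the 6 libraries was taken from 10459 genes with a mean of at least 100 (Pearson r of log2 values, which share the cultures and 2D replicate 3). For SNAI1 these were CBX2 and UCP2 (r = 0.997 and 0.996), for SNAI2 NPAT and PLEKHH2 (0.996 and 0.994), for ZEB1 AFF4 and RPL7A (0.980 and 0.969), for ZEB2 DAB2 and RFWD3 (0.999 and 0.999), for TWIST1 PRKCE and USP12 (0.999 and 0.998), for TWIST2 CA12 and DBN1 (0.998 and 0.998) and for MECOM AHCYL1 and NDC80 (0.999 and 0.998). Such values are common with 6 libraries: 609 genes had an r over 0.95 with MECOM and 546 with SNAI1, but 13 with ZEB1. AHCYL1, a regulator of calcium release, had 2162, 2177 and 2067 normalised counts in 3D, against 6352, 6283 and 6202 in 2D. DAB2, an endocytic adaptor, had 1124, 674 and 1181 in 3D, against 5796, 6312 and 3446 in 2D, with 2D replicate 3 lowest of the 2D libraries as for ZEB2.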

How the data were processed

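Per the labels' protocols, poly(A) RNA libraries were made with an Illumina TruSeq kit (v2), which keeps no strand, and sequenced on a NovaSeq. The submitters' processing notes name featureCounts 1.5.0, HISAT2, DESeq2 and the build GRCh38/hg38. No annotation release is named in the sources used here. Each deposited value is a signal, the gene's read count after the authors' division by 1 size factor per library. All values (100%) came out as whole reads within 0.01 of a read, and the edgeR test on these recovered reads called 3657 genes. Symbols were found for 26506 genes; coordinates, exon lengths and overlaps came from GENCODE 29 (26702 genes). Antisense partners are named where their exons overlap. On the transcript strand, the 75-base windows of the 8 factors were unique, except 0.0268% of those of ZEB2. The opposite strand was not searched. Exons of other genes on either strand overlap 6.94% of the exon bases of TWIST1, 5.18% of ZEB2 and 4.23% of ZEB1. As the kit keeps no strand, reads from these overlaps cannot be assigned to a gene.

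The test was limma 3.58.1 (R 4.3.3; eBayes, trend) on log2(value + 1) for the 15598 genes averaging 10 or more normalised counts, with culture in the model and p-values adjusted by Benjamini-Hochberg over all of them. This scale understates changes of low genes. The workflow was tested on simulated counts. Results were recomputed with a pseudocount of 0.1 or 10, with the filter removed or raised to 50, after TMM or equal-total scaling, with robust eBayes, with a replicate block, with edgeR 4.0.16 and DESeq2 1.42.0, and dropping single libraries. All pairs of libraries differed beyond sampling noise (lowest mean chi-square per gene 9.42).

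The factors, lists and tests were chosen with earlier results of these data known. Text names the 8 factors, up to 4 called genes per list and direction by smallest adjusted p, if averaging 100 or more in the higher culture, 22 genes fixed by name, and 2 genes per factor by profile. ZEB2-AS1 is not analysed here. MLANA, TYR, PAX3, COL1A1, PTPRC, KDR, CDH5, VWF, KRT8, KRT18, MIR200CHG, SNAI3-AS1, HDAC9 and GPR160 were named after their values were seen. Intervals and floors (3 reads summed over a culture) cover counting error only, and a floor covers that of the culture without reads only.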

Additional observations from a re-analysis of the deposited data

How the results depend on the processing

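The count of all genes called was 2987 to 4724 over the alternatives that kept all 6 libraries, and 1190 to 7111 with a library left out. Members called numbered 2 to 4, and 2 to 5 with a library left out. TWIST1 is not tested at a mean of at least 50, and PRRX1 was called lower without a filter. SNAI1 was called higher with equal totals, with DESeq2 and with the replicate block. Libraries of the same number did not deviate together (r of -0.14 to 0.04), so the numbers were not taken to pair them. With the replicate block, 3222 genes were called in all, and the turnover list had 6 calls against 11. Equal totals gave 4 calls in the turnover list and 6 against 10 in the regulator list. Melanocytic markers had 5 calls without a filter, 1 at a mean of at least 50 and 4 with DESeq2, against 2; markers of other cell types had 5 without a filter, against 3. With a library left out, list calls ranged from 5 to 14 for epithelial and 4 to 16 for mesenchymal genes. They ranged from 5 to 14 for other EMT-linked factors, 2 to 14 for corepressors and cofactors and 3 to 17 for turnover. For regulators they were 4 to 15, for genes around MECOM 4 to 14, for melanocytic 2 to 5 and for other cell types 3 to 5. The causes were not tested. No named or member call changed sign under these alternatives. Of 111 values of the 7 tested factors, 108 moved by less than 1 SD of the replicates; of 1085 values of 68 other named genes, 996 kept their side of the threshold. Depth limits TWIST1 and PRRX1, with 12 and 0 reads in 3D.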

Other observations

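Genes within 1 Mb of the factors were looked at after the values were seen. Of 11 tested around MECOM, 0 were higher and 1 was lower (limma; 0 and 4 at an unadjusted p under 0.05, 0 and 1 with edgeR, 0 and 2 with DESeq2). It was the receptor gene GPR160, with 94.2 ± 19.2 normalised counts in 3D and 186 ± 23.6 in 2D (SD, n = 3 each; limma, adjusted p = 0.030, and 0.020 to 0.12 with a library left out). Of 3 around TWIST1, HDAC9, a histone deacetylase gene, was lower, at 9.44 ± 3.68 in 3D and 29.9 ± 7.34 in 2D (SD, n = 3 each; limma, adjusted p = 0.035, and 0.032 to 0.13 with a library left out). Both calls held only when 3D replicate 2 or 2D replicate 3 was the library left out. Around SNAI1, 7 of 28 were higher and 3 lower (7 and 7 at an unadjusted p under 0.05, 7 and 3 with edgeR, 7 and 7 with DESeq2), where 12.5% of all genes were called higher and 11.6% lower. Around ZEB1, 1 of 11 was higher and 1 lower, and around TWIST2, 1 of 13 was higher and 0 lower (1 lower at an unadjusted p under 0.05, 0 with edgeR and 1 with DESeq2).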
